A study of Mus musculus with 8 samples.

Results

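The genes described here encode 9 nuclear receptors: the glucocorticoid receptor (Nr3c1), the mineralocorticoid receptor (Nr3c2), estrogen receptor alpha (Esr1), the thyroid hormone receptors alpha and beta (Thra, Thrb), the retinoic acid receptors alpha and beta (Rara, Rarb), RAR-related orphan receptor alpha (Rora) and the orphan receptor Nr4a1, also called Nur77. Every probeset annotated to a receptor by symbol or synonym was collected, and the probeset with the highest mean signal over all hearts stood for the gene, so that 9 of 18193 measured genes are at issue. RNA from the whole heart of 4 wild type (WT) and 4 SRC-2 knockout (SRC-2 KO) mice was read on 8 Affymetrix whole-genome mouse expression arrays, 1 heart to an array. All animals were male, of the mixed strain C57B/6Jx129Sv, fed ad lib, not subjected to pressure overload, and 10 to 12 weeks of age by the sample labels. The methods of the study call them age-matched littermates and give a wider age range. The knockout is of the whole animal and not of heart muscle alone, and the construction of the allele is not given in the sources used here. The question put to the arrays was how the loss of SRC-2 alters transcription in the heart, and for these genes it becomes whether the receptors that SRC-2 serves were themselves expressed at another level.

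Steroid, thyroid hormone and retinoic acid receptors are transcription factors that bind a small lipophilic ligand, and the ligand changes the face that the receptor offers to other proteins. SRC-2, the product of Ncoa2 and a member of the p160 family, is a coactivator that docks on such a receptor and brings histone acetyltransferases to the promoter. In heart muscle, Thra drives the genes of fast contraction and calcium uptake, Nr3c1 and Nr3c2 both bind corticosteroids, Rora sets the level of clock genes, and Nr4a1 needs no known ligand and is made within minutes of a stimulus, as the immediate early genes are.

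Ncoa2 itself was read first. The WT hearts had a signal of 1934 ± 230.5 and the SRC-2 KO hearts one of 249.8 ± 16.2 (SD, n = 4 each), and the highest KO heart, at 267.4, was far below the lowest WT heart, at 1660. The log2 fold change was -2.95 (SE 0.12, limma adjusted p = 5.9e-04), and 1 further probeset, with a mean signal of 114.4, gave -2.63. The other 2 probesets, near the dim limit at mean signals of 62.8 and 54.3, gave 0.67 and -0.28 with overlapping hearts. With the mean of all its probesets the fold change of Ncoa2 was -1.30 and did not pass (limma adjusted p = 0.478), nor did it with the replicate number as a block (adjusted p = 0.258). The median signal lay between 77.0 and 87.3 on WT arrays and between 75.6 and 83.2 on SRC-2 KO arrays, and 36.9% to 40.7% of probesets were under a signal of 50, which was taken here as dim because the table holds no detection calls.

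A promoter is shown for a pair of the receptors, because each holds a short motif of a kind known from signal-regulated genes. Both windows are the 250 bases before the RefSeq transcription start in the GRCm38.p6 assembly, written 5′ to 3′ along the transcribed strand. In Rarb (chr14:16575477-16575726, minus strand) the capitals mark the retinoic acid response element, a direct repeat with 5 bases between its half-sites, by which retinoic acid raises the transcription of its own receptor. In Nr4a1 (chr15:101266596-101266845, plus strand) the capitals mark the letters TGCGTCA, a sequence of the kind bound by AP-1 and CREB factors.
Rarb: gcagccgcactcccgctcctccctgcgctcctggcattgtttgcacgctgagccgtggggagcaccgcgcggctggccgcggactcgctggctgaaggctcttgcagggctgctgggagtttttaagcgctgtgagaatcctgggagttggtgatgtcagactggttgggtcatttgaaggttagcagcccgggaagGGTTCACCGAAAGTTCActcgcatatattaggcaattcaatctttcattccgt
Nr4a1: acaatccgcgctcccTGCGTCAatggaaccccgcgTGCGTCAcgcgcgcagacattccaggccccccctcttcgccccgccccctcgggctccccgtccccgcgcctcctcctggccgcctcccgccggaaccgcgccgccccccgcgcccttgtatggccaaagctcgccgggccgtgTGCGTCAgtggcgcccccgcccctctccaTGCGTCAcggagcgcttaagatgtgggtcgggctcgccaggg

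The element of Rarb begins 53 bases before the start. The pattern sought was a half-site of A or G, then G, then G or T, then TCA, followed by any 5 bases and such a half-site again. On either strand this pattern was found in 29 of 32851 such windows of the genome (0.0883%), and among 12 windows of 7 of the receptors Rarb alone held it. The letters TGCGTCA occurred 4 times before Nr4a1, beginning 235, 215, 71 and 42 bases before the start. They were present in 1.75% of all windows, and 1 window of 32851 held 4 or more of them. The full cyclic AMP element TGACGTCA, found in 1.55% of windows, and the palindromic glucocorticoid response element with AGAACA half-sites, found in 0.00913%, matched no receptor window. The half-site AGGTCA, found in 14% of windows, occurred in a window of Thrb. A match of letters is a description of the window and not a site of binding.

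Expression of the receptors in SRC-2 KO hearts could not be told from that in WT hearts. None of the 9 passed an adjusted p of 0.05 by limma, neither with a variance prior common to all genes nor with one that followed the mean signal (the trended fit). Over all genes, 4 of 18193 passed in the common fit (0.022%) and 69 in the trended fit (0.379%). At an unadjusted p of 0.05, 0 of the 9 receptors passed in the common fit and 1, Esr1, in the trended fit, where 10.1% and 12.6% of all genes did. The KO and WT hearts overlapped for all 9 receptors, and 6.82% of all genes had hearts that did not overlap. The fold change was below 0 on the log2 scale for 7 receptors and above it for 2, with a median of -0.13, against a median of -0.03 over all genes and 53.0% of them below 0. Nr3c2 and Thra, both close to 0, were 0.08 and 0.02 on the log2 scale when each array was centred on its median. With 8 arrays the smallest exact permutation p is 0.0286, the p-values measure only the spread between these hearts, and the number of arrays limits the precision. In RNA from a whole heart, fewer cells of a type and less RNA in each cell cannot be told apart.

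**Figure D1:**
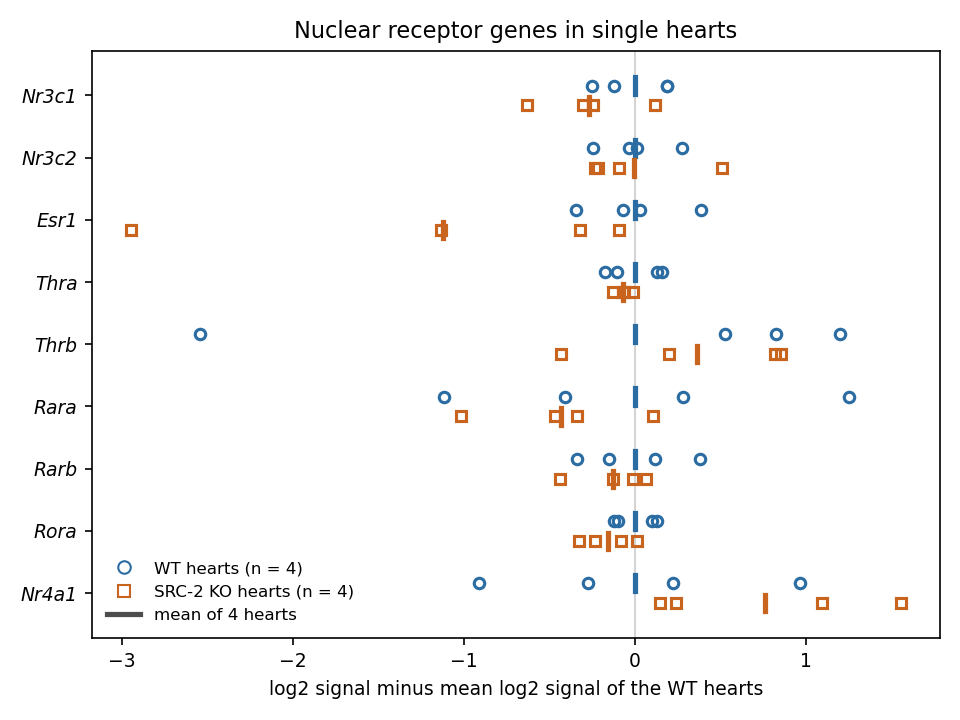
Each symbol is the log2 signal of 1 heart minus the mean log2 signal of the 4 WT hearts for that gene (x axis), for the 9 receptor genes (y axis), with WT hearts as circles, SRC-2 KO hearts as squares and a bar at the mean of each genotype (n = 4 each). The genotypes overlap in every row, and the single heart far to the left for Esr1 is KO heart 1, at a signal of 29.2.

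Among the corticosteroid receptors, Nr3c1 had signals of 1693, 2286, 1850 and 2293 in WT hearts 1 to 4 and 1298, 1627, 1697 and 2185 in SRC-2 KO hearts 1 to 4. KO hearts 1 and 2 stood below every WT heart, KO heart 3 was level with WT heart 1, and KO heart 4 stood above WT hearts 1 and 3. The means were 2031 ± 305.9 and 1702 ± 366.0 (SD, n = 4), the log2 fold change was -0.27 (SE 0.19, 95% interval -0.72 to 0.18), and the adjusted p was 0.663 by limma. The interval runs from 0.609-fold to 1.13-fold of WT. The fold change of Nr3c1 was -0.15 without KO heart 1, -0.40 without KO heart 4 and -0.14 with the mean of its probesets. Nr3c1 binds corticosterone, the main glucocorticoid of the mouse, and is present in almost every cell.

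Nr3c2 had signals of 432.6, 446.4, 374.5 and 536.3 in WT hearts and 377.7, 416.2, 631.4 and 381.4 in SRC-2 KO hearts. The highest heart of all was KO heart 3, and the other KO hearts lay within the WT range. With means of 447.4 ± 66.9 and 451.7 ± 121.1 (SD, n = 4), the log2 fold change was -0.01 (SE 0.20, limma adjusted p = 0.993), and its interval of 0.714-fold to 1.38-fold of WT is the range that these 8 hearts allow. In cardiomyocytes this receptor is thought to be occupied largely by glucocorticoid, because the enzyme that would remove it is scarce there. That enzyme, Hsd11b2, was dim, at 33.9 ± 26.9 in WT and 24.5 ± 14.9 in SRC-2 KO hearts (SD, n = 4).

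Esr1 had the lowest fold change of the receptors. Its signals were 177.4, 215.0, 294.5 and 229.7 in WT hearts, and 29.2, 211.1, 102.7 and 180.0 in SRC-2 KO hearts. KO hearts 1 and 3 were below every WT heart, whereas KO hearts 2 and 4 were above WT heart 1. The means were 229.1 ± 48.8 and 130.8 ± 81.6 (SD, n = 4), and the log2 fold change was -1.13 (SE 0.61, 95% interval -2.55 to 0.30), with an adjusted p of 0.575 in the common fit and 0.389 in the trended fit of limma. KO heart 1 decided much of this value, which was -0.52 without it. Without WT heart 1 the remaining hearts of Esr1 no longer overlapped, as was then the case for 12.6% of all genes. The mean of its 3 probesets gave -0.19, since a pair of dim ones read 1.20 and -0.66. The exact permutation p over the 8 hearts was 0.0857. Estrogen receptor alpha is found in the heart of both sexes, and all of these hearts were from males.

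Thra was the steadiest receptor gene. Its signals were 1358, 1079.5, 1135 and 1333 in WT hearts and 1167, 1208, 1162 and 1118 in SRC-2 KO hearts, all of the KO values lying inside the WT range. The means of 1227 ± 140.0 and 1164 ± 36.7 (SD, n = 4) gave a log2 fold change of -0.07 (SE 0.11, limma adjusted p = 0.852), and the interval of 0.791-fold to 1.15-fold of WT was the narrowest among the 9. Thra encodes the main thyroid hormone receptor of heart muscle. Its other 2 probesets read -0.12 and 0.02.

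Thrb, the partner receptor that is prominent in liver and pituitary, was weak in these hearts. The WT signals were 114.5, 8.59, 72.0 and 88.5, and those of the SRC-2 KO hearts were 57.4, 37.0, 90.5 and 88.1. WT heart 2 was lower than all the others by far and set the sign of the result. The log2 fold change was 0.36 (SE 0.83, limma adjusted p = 0.896) with all hearts, -0.49 without WT heart 2 and -0.17 with signals under 50 set to 50. The interval of 0.333-fold to 4.93-fold of WT spans both directions.

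Rara was at the edge of what the array reads. Its signals were 10.8, 28.3, 17.6 and 55.4 in WT and 25.1, 11.5, 18.4 and 16.8 in SRC-2 KO hearts, 7 of the 8 under 50. The log2 fold change of -0.43 (SE 0.51, limma adjusted p = 0.790) therefore rests on dim signals. It was -0.0153 without WT heart 4, -0.80 without WT heart 1 and -0.0372 with signals under 50 set to 50. A single probeset represented Rara, so that no brighter reading of this receptor could be had.

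Rarb gave signals of 656.2, 789.6, 948.3 and 576.2 in WT hearts and 538.6, 667.2, 762.4 and 724.1 in SRC-2 KO hearts. The highest WT heart was 3 and the lowest KO heart was 1, and the 3 other KO hearts lay inside the WT range. The means were 742.6 ± 163.0 and 673.1 ± 97.8 (SD, n = 4), and the log2 fold change was -0.13 (SE 0.19, 95% interval -0.58 to 0.32, limma adjusted p = 0.838). Rarb is itself a target of retinoic acid through the element printed above. The interval runs from 0.669-fold to 1.25-fold of WT, and with a heart left out in turn the log2 fold change of Rarb ran from -0.24 (without WT heart 4) to -0.0021 (without WT heart 3).

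Rora, which binds the AGGTCA half-site as a monomer, had signals of 886.9, 1036, 1059 and 902.2 in WT hearts. The SRC-2 KO hearts gave 771.3, 974.9, 822.1 and 914.6. KO hearts 1 and 3 were below every WT heart and KO hearts 2 and 4 were among them. The means of 971.0 ± 89.0 and 870.7 ± 91.3 (SD, n = 4) gave a log2 fold change of -0.16 (SE 0.12, 95% interval -0.45 to 0.13), with a limma adjusted p of 0.689 and an exact permutation p of 0.2.

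**Figure D2:**
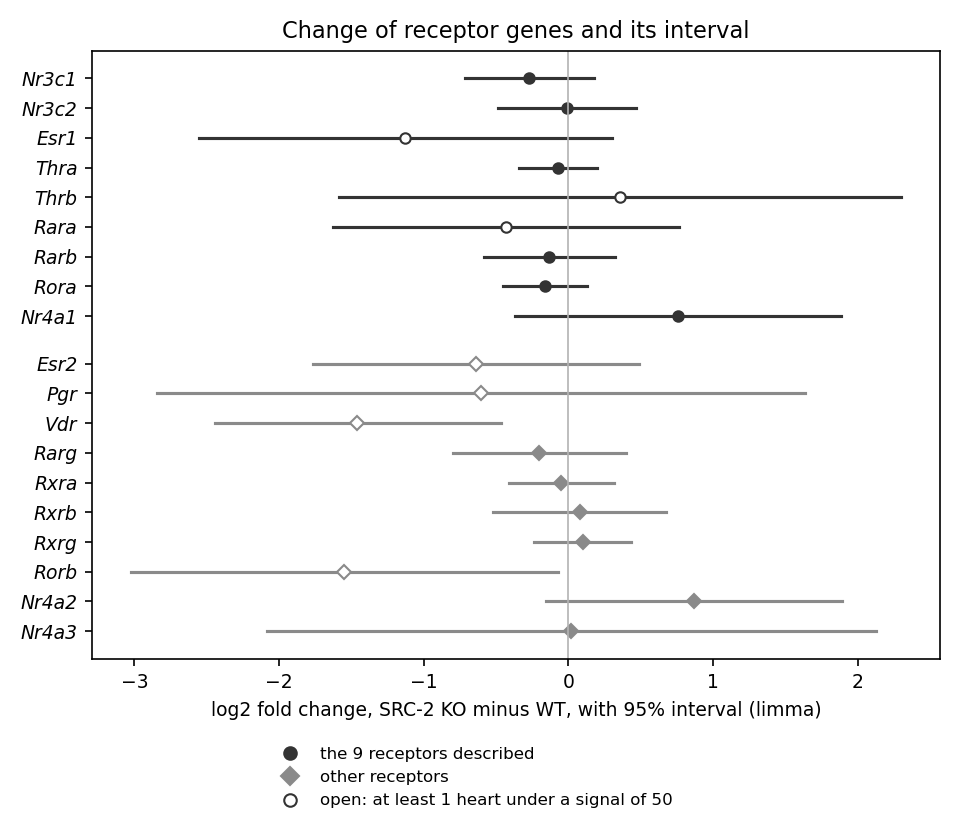
The x axis is the log2 fold change of SRC-2 KO against WT hearts (n = 4 each) and each horizontal line is its 95% interval from limma, for the 9 receptors described (black circles) and 10 other receptors of the same families (grey diamonds), with open symbols for genes that had at least 1 heart under a signal of 50. Every black line crosses 0, from the narrow one of Thra at -0.07 to the broad one of Thrb at 0.36. Among the grey lines those of Vdr at -1.46 and Rorb at -1.55, each with a KO mean under 50, do not.

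Several probesets read the same receptor in 4 cases. The 9 receptors had 26 probesets, 21 of them with a mean signal of 50 or more, and of these 17 had a log2 fold change below 0 and 4 above. None of the 26 passed the adjusted p over all 34945 probesets, where 3 (0.00858%) did. All 6 probesets of Nr3c1 were at 50 or more, 5 of them below 0 on the log2 scale, with values from -0.27 to 0.15. Rora had 9 probesets, and the 7 at 50 or more all read below 0, from -0.06 to -1.79. The lowest of these was near the dim limit, at means of 80.1 in WT and 29.5 in SRC-2 KO hearts, and was the only probeset of a receptor with an unadjusted limma p under 0.05 (adjusted p = 0.537), against 8.42% of all probesets. Probesets of a gene share the same RNA and do not count as replicates.

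Nr4a1 differed widely from heart to heart. Its signals were 371.0, 577.1, 812.5 and 1364 in WT hearts and 2051, 772.4, 823.9 and 1487 in SRC-2 KO hearts. The highest heart was KO heart 1 and the lowest WT heart 1, a 5.53-fold difference, and KO hearts 2 and 3 lay within the WT range. The means were 781.1 ± 428.3 and 1284 ± 606.5 (SD, n = 4), and the log2 fold change was 0.76 (SE 0.48, 95% interval -0.37 to 1.88), with an adjusted p of 0.620 in the common fit and 0.429 in the trended fit of limma and an exact permutation p of 0.171. Without KO heart 1 it was 0.49, and over all hearts left out in turn it ran from 0.45 to 1.08.

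The other members of the Nr4a family, also early response genes, were read beside it. Nr4a3 read 105.0, 311.0, 308.7 and 798.1 in WT hearts and 1178, 227.9, 86.0 and 370.8 in SRC-2 KO hearts, again highest in KO heart 1, and its log2 fold change was 0.02 (SE 0.90, limma adjusted p = 0.995). Nr4a2 read 57.4, 172.3, 66.5 and 187.8 in WT hearts and 215.9, 142.2, 197.0 and 229.1 in SRC-2 KO hearts, with a log2 fold change of 0.87 (SE 0.44, limma adjusted p = 0.547). Its KO hearts 1, 3 and 4 were above all WT hearts and KO heart 2 was not.

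The spread within a genotype was set against that of the 500 genes nearest in mean signal. The pooled SD of log2 signal was 0.74 for Nr4a1, at the 99.4th percentile of such genes, and 1.40 for Nr4a3, at the 99.8th. Esr1 was also wide, with an SD of 0.94 at the 98th percentile. Nr3c1 stood at the 88.4th, while Rora and Thra were less variable than most genes of their brightness, at the 26.4th and 23.4th percentiles. The dim Rara was at the 5.4th percentile, where most genes of like signal varied more.

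Genes that are switched on within minutes of a stimulus or of handling were examined beside Nr4a1, from a list of 19 immediate early genes. The list was split nearly evenly between the genotypes, with 10 genes above 0 on the log2 scale, 9 below and a median of 0.02, and none passed in either fit. It was not even between hearts, since 11 of the 19 genes (57.9%) were highest in KO heart 1, where 14.2% of all genes were, and 13 (68.4%) were lowest in KO heart 3, where 15.0% of all genes were. Without KO heart 1 the balance was 3 genes above 0 and 16 below, with a median of -0.20. Without KO heart 3 the median moved the other way, to 0.22. The list mean was 10.5 on the log2 scale in KO heart 1 and 9.10 in KO heart 3, and from 9.24 to 9.93 in the WT hearts.

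Atf3, a stress-induced bZIP factor, had a signal of 6025 in KO heart 1 and between 232.7 and 1004 in the other 7. Btg2, an antiproliferative gene, had 7893 in KO heart 1 and between 789.0 and 1997 elsewhere. Egr3, a zinc finger factor, had 393.8 in KO heart 1 and between 50.8 and 166.7 elsewhere. These genes were chosen after their values were seen. The 3 genes of the list with the smallest p were Ier3, at a log2 fold change of 0.26 (limma adjusted p = 0.532) with all KO hearts above all WT hearts, Fos at -1.05 (adjusted p = 0.588) and Klf4 at -0.31 (adjusted p = 0.625).

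Over the 8 hearts, the log2 signal of Nr4a1 correlated with that of Atf3 at r = 0.81 (exact permutation p = 0.0116) and rho = 0.71 (exact permutation p = 0.0576), and with that of Nr4a3 at r = 0.78 (exact permutation p = 0.0233) and rho = 0.67 (exact permutation p = 0.0831). These were 2 of 21 relations examined, and after Benjamini-Hochberg adjustment both p-values of r became 0.163 and those of rho 0.403 and 0.436. Of the others, Fosl2 had r = 0.75 (exact permutation p = 0.0214, adjusted 0.163), Egr3 had r = 0.73 (exact permutation p = 0.0370, adjusted 0.194), and Nr4a2 had the highest rho, 0.86 (exact permutation p = 0.0107, adjusted 0.225), at r = 0.71 (exact permutation p = 0.0546). Leaving out the 2 hearts farthest from the median of Nr4a1 gave r = 0.60 for Atf3, 0.49 for Nr4a3, 0.38 for Nr4a2, 0.30 for Fosl2 and 0.28 for Egr3. None of the relations passed the adjustment, and these 5 rest in part on those hearts. The permutation took all 8 hearts as exchangeable, so these r and p include any difference between the genotypes. With each heart taken as its deviation from its genotype mean, r was 0.90 for Nr4a3, 0.80 for Atf3 and 0.58 for Nr4a2. It was then 0.87 for Ier2 and 0.82 for Fos, against 0.50 and 0.31 before, and lowest for Klf2, at -0.02. The r of deviations were not tested.

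**Figure D3:**
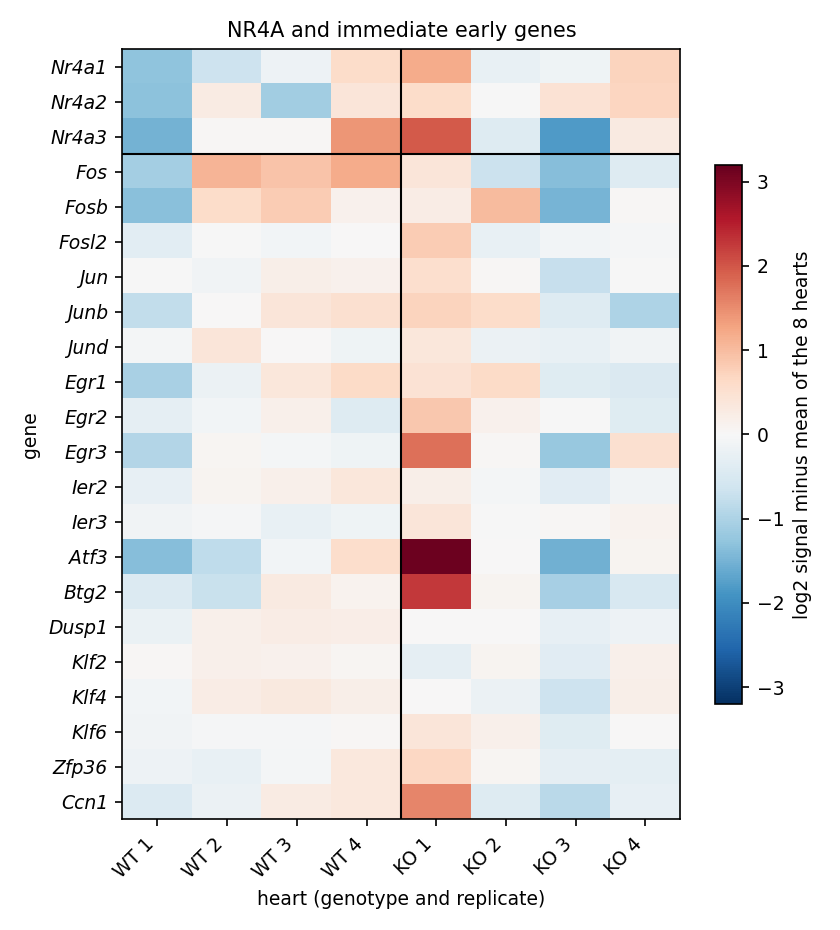
Colour gives the log2 signal of each gene (rows) in each heart (columns, WT 1 to 4 and SRC-2 KO 1 to 4) minus the mean of that gene over the 8 hearts, red above and blue below, with the Nr4a family over the horizontal line and 19 immediate early genes under it. The column of KO heart 1 is red for most genes, deepest for Atf3 with a signal of 6025 and Btg2 with 7893, and the column of KO heart 3 is mostly blue.

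Of 12 further receptors of the same families listed for comparison, 10 were measured, 4 with a log2 fold change above 0 and 6 below, and none passed. Vdr, the vitamin D receptor, read 103.8, 111.7, 75.2 and 113.1 in WT hearts and 19.4, 24.3, 57.2 and 64.4 in SRC-2 KO hearts. All of its KO hearts were below all WT hearts, and its log2 fold change was -1.46 (SE 0.42, unadjusted p = 0.00990, limma adjusted p = 0.398 in the common and 0.249 in the trended fit). Rorb, a relative of Rora best known from retina and brain, gave -1.55 (SE 0.63, limma adjusted p = 0.481), with overlapping hearts. The KO means of Vdr and Rorb, 41.3 and 46.0, were under the dim limit of 50. These 2 of the 10 had an unadjusted limma p under 0.05 in the common fit, as did 10.1% of all genes. Rxra, Rxrb and Rxrg, the retinoid X receptors with which thyroid, retinoic acid and vitamin D receptors pair on DNA, gave -0.05, 0.08 and 0.10 and were all bright. Esr2 was dim, at 20.2 ± 11.7 in WT and 12.6 ± 6.65 in SRC-2 KO hearts (SD, n = 4).

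Steroid receptors wait for hormone in a complex with heat shock proteins, and 9 of 12 listed chaperones were measured. Of these, 8 had a log2 fold change above 0, with a median of 0.12, and none passed. Fkbp5, a cochaperone that lowers the affinity of Nr3c1 for hormone and is itself induced by glucocorticoid, read 603.5, 546.8, 690.0 and 808.2 in WT hearts and 1151, 1481, 1476 and 761.0 in SRC-2 KO hearts. KO heart 4 was inside the WT range and the other KO hearts were above it, and the log2 fold change was 0.84 (SE 0.25, limma adjusted p = 0.402 in the common and 0.101 in the trended fit). Ppp5c, a phosphatase of the receptor complex, was higher in every KO heart than in any WT heart, at 1379 ± 259.3 in WT and 1966 ± 86.9 in SRC-2 KO (SD, n = 4), with a log2 fold change of 0.53 (SE 0.15, limma adjusted p = 0.394 in the common and 0.0948 in the trended fit). Hspa8 gave 0.19 (adjusted p = 0.677).

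Enzymes and carriers that set the supply of steroid were mostly dim, 7 of 12 measured genes having a mean under 50. Hsd11b1, which regenerates active glucocorticoid inside the cell, was well measured. It read 757.3, 753.7, 824.4 and 576.5 in WT hearts and 872.5, 947.0, 1552 and 955.7 in SRC-2 KO hearts, with all KO hearts above all WT hearts. Its log2 fold change was 0.54 (SE 0.22, limma adjusted p = 0.475 in the common and 0.212 in the trended fit), and KO heart 3 was apart from the others. Hsd3b1 and Cyp11a1, enzymes of steroid synthesis, gave -0.64 (adjusted p = 0.609) and 2.00 (adjusted p = 0.621) on signals that were dim in nearly every heart.

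Among genes that handle thyroid hormone, 8 of 10 were measured, 6 of them below 0 on the log2 scale, and none passed. Dio2, the deiodinase that converts thyroxine to the active hormone T3, read 304.4, 336.3, 244.8 and 204.7 in WT hearts and 92.9, 129.4, 93.2 and 188.0 in SRC-2 KO hearts, and all KO hearts were below all WT hearts. Its log2 fold change was -1.15 (SE 0.28, unadjusted p = 0.00378, limma adjusted p = 0.336 in the common and 0.122 in the trended fit). Ttr, a thyroxine carrier of the blood made mainly in liver and choroid plexus, gave -1.78 (SE 0.55, limma adjusted p = 0.404), with means of 3645 ± 1981 and 1089 ± 727.5 (SD, n = 4) and overlapping hearts. Slco1c1, a thyroxine transporter of the brain, gave -1.10 (adjusted p = 0.540) at a dim signal. The median of the list was -0.94, and it was -0.60 without KO heart 3 and -0.26 with signals under 50 set to 50.

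Genes that carry, make or break down retinoids numbered 15 measured of 17, 10 of them below 0, with a median of -0.25 and none passing. The median was -0.0689 without KO heart 2 and 0.00 with signals under 50 set to 50. Fabp5, a fatty acid binding protein that can also carry retinoic acid, gave -0.56 (SE 0.22, limma adjusted p = 0.475), and KO heart 4, at 13935, was within the WT range while the other KO hearts, up to 8737, were below it. Dhrs3, a retinal reductase, gave -0.25 (adjusted p = 0.539). Aldh1a3, which makes retinoic acid, gave 0.94 (adjusted p = 0.499) from means of 50.1 ± 23.1 and 92.3 ± 33.2 (SD, n = 4), near the dim limit. Aldh1a2, the enzyme that makes retinoic acid in the embryonic heart, gave -0.30 (adjusted p = 0.611).

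Genes known to answer to a receptor were read next, since their level is a separate measurement from that of the receptor. Of 16 targets of corticosteroid, 12 had a log2 fold change above 0 and 4 below, with a median of 0.30. Fkbp5 is counted here and among the chaperones, and Klf9 here and among the genes that thyroid hormone induces. In the common fit none of the 16 passed, and in the trended fit Pdk4, the kinase that holds back pyruvate oxidation, passed. Pdk4 read 21627, 27461, 23818 and 29360.4 in WT hearts and 18994, 12465, 9005 and 9799 in SRC-2 KO hearts, with every KO heart below every WT heart and a log2 fold change of -1.08 (SE 0.25, limma adjusted p = 0.336 in the common and 0.0367 in the trended fit). Tsc22d3, a glucocorticoid-induced leucine zipper gene, gave 0.33 (adjusted p = 0.452 and 0.163). Without KO heart 1 the median of the list was 0.12 and 10 of its genes were above 0. The median was 0.45 without KO heart 4.

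Of 11 measured genes that thyroid hormone induces, 9 had a log2 fold change above 0, with a median of 0.18. This median was 0.0496 with the mean of all probesets, 0.0514 with quantile normalization and 0.26 with median centring. Ucp3, a mitochondrial carrier of muscle, read 1135, 1145, 1094 and 1502 in WT hearts and 507.1, 731.3, 604.7 and 484.3 in SRC-2 KO hearts. Its log2 fold change was -1.07 (SE 0.18, limma adjusted p = 0.210 in the common and 0.0157 in the trended fit). Thrsp, a lipogenic gene first found as a thyroid hormone response in liver, read 1373, 1322, 1429 and 1234 in WT hearts and 1939, 2283, 2556 and 3803 in SRC-2 KO hearts. The hearts of the genotypes did not overlap for either gene, and Thrsp passed in the trended fit with a log2 fold change of 0.94 (SE 0.21, limma adjusted p = 0.318 in the common and 0.0361 in the trended fit). Hr, with Ucp3 the 2 genes of the list below 0, gave -0.43 (limma adjusted p = 0.475). Its KO hearts, up to 236.6, were all below its WT hearts, from 256.3. Myh6 and Atp2a2, the classical cardiac targets that encode the fast myosin and the calcium pump, gave 0.21 (limma adjusted p = 0.664) and 0.19 (limma adjusted p = 0.704). The signals of Myh6 and Atp2a2 reached 111231 and 85767, near the highest deposited value of 124739. All 6 cardiomyocyte markers described below, which include Ryr2 of this list, were also above 0, with a median of 0.15.

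Genes that thyroid hormone represses were split evenly, with 3 of 6 above 0 and a median of -0.01. Myh7, the slow myosin, read 2347, 1714, 2050 and 2326 in WT hearts and 1554, 2133, 2400 and 2172 in SRC-2 KO hearts, a log2 fold change of -0.04 (SE 0.18, limma adjusted p = 0.954). Pln, which restrains the calcium pump, gave 0.23 (adjusted p = 0.585). Kcne1, a potassium channel subunit, gave -0.73 (adjusted p = 0.497), and Adcy6 gave -0.11 (adjusted p = 0.828).

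Estrogen-responsive genes had 7 of 8 below 0, with a median of -0.32 and none passing. Nrip1, a corepressor that binds liganded nuclear receptors, read 1553, 2001, 2036 and 1861 in WT hearts and 1295, 1431, 1278 and 1148 in SRC-2 KO hearts. All of its KO hearts were below all WT hearts, and its log2 fold change was -0.53 (SE 0.13, unadjusted p = 0.00449, limma adjusted p = 0.344 in the common and 0.0680 in the trended fit). Cxcl12, a chemokine, gave -0.44 (adjusted p = 0.512) and Greb1 gave -0.99 (adjusted p = 0.652) at a dim signal.

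The clock genes that Rora and its relatives regulate had 5 of 7 below 0, with a median of -0.27, and 4 of the 7 had an unadjusted limma p under 0.05 in the common fit, where 10.1% of all genes did, but none passed after adjustment. The median was -0.0361 once probesets liable to cross-hybridise were set aside. Npas2, a partner of Bmal1, read 341.3, 288.6, 306.9 and 337.6 in WT hearts and 135.6, 217.8, 118.9 and 262.9 in SRC-2 KO hearts, with all KO hearts lower. Its log2 fold change was -0.87 (SE 0.27, limma adjusted p = 0.404 in the common and 0.182 in the trended fit). Arntl, the gene of Bmal1, gave -0.50 (adjusted p = 0.478), with KO heart 4, at 902.3, among the WT hearts and the other KO hearts, up to 586.5, below them. Cry1 gave -0.53 (adjusted p = 0.462), and Nr1d2, a repressor that competes with Rora for the same site, gave 0.49 (adjusted p = 0.453). The hour at which the hearts were taken is not given in the sources used here.

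**Figure D4:**
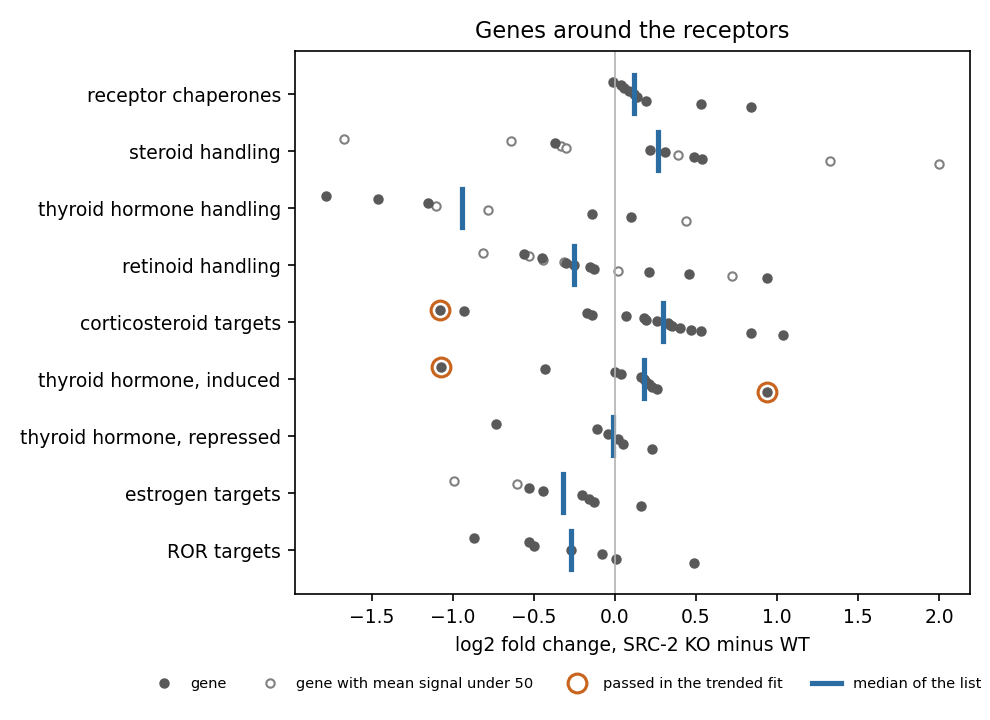
Each dot is the log2 fold change of a gene in SRC-2 KO against WT hearts (x axis, n = 4 each), in rows by the receptor pathway it belongs to (y axis), with open dots for genes whose mean signal is under 50, a blue bar at the median of the row and an orange ring on genes that passed in the trended fit. The rings mark Pdk4 at -1.08, Ucp3 at -1.07 and Thrsp at 0.94, and the medians run from -0.94 for thyroid hormone handling to 0.30 for corticosteroid targets.

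Markers of the cell types of the heart were read from 11 lists, and none of their genes passed in the common fit. The 8 atrial markers were all lower in SRC-2 KO, their mean log2 signal being 12.9 to 13.6 among WT hearts and 9.81 to 12.9 among KO hearts, with KO heart 1 at the top of the KO range. All 10 fibroblast markers were lower (WT hearts 12.2 to 12.9, KO hearts 11.4 to 12.3), as were all 9 macrophage markers (WT hearts 10.5 to 10.8, KO hearts 10.2 to 10.4), while the 6 cardiomyocyte markers lay at 15.3 to 15.6 among WT hearts and 15.5 to 15.8 among KO hearts. The ranges of the genotypes overlapped for the atrial, fibroblast and cardiomyocyte means and not for the macrophage mean. Lower in SRC-2 KO were also 7 of 8 endothelial, 5 of 6 smooth muscle, 4 of 6 skeletal muscle and 3 of 3 mesothelial markers, and higher were 5 of 5 ventricular, 4 of 4 adipocyte and 2 of 2 erythroid markers, all of these list means overlapping. In the trended fit the atrial markers Stard10, at -1.64 (limma adjusted p = 0.0188), and Pam, at -1.63 (limma adjusted p = 0.0367), passed, as did Acta2, the smooth muscle actin, at 0.74 (limma adjusted p = 0.0422), and Tnni2, a troponin of fast skeletal muscle, at -2.10 (limma adjusted p = 0.0367), and no marker of the other lists did. The part of these cell types in the values of the receptors and their targets was not tested.

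For each receptor with a mean signal of 100 or more, the 2 genes whose log2 signal followed it most closely over the 8 hearts were sought among about 9095 genes above the median signal. The values are descriptions of a maximum and carry no p. Nr3c1 was followed by Col6a3, a chain of collagen VI (r = 0.98, rho = 0.93), and Zfp36l1, an RNA-binding protein (r = 0.97, rho = 0.93), and without the 2 hearts farthest from its median these were r = 0.96 and 0.95. Rora was followed by Cggbp1 and Slc11a2 (both r = 0.96), Thra by Rpp21 (r = 0.96) and Cactin (r = 0.94), and Rarb by Cad and Rabgap1 (both r = 0.92). Nr4a1 was followed by H6pd and Akap2 (both r = 0.91), and H6pd, which supplies the cofactor of Hsd11b1, had a log2 fold change of 0.22 (limma adjusted p = 0.714). Esr1 was followed by Pygo2 (r = 0.99, and 0.82 without the 2 hearts) and Zfp362 (r = 0.97 and 0.66). Nr3c2 was followed by Fdx1 (r = 0.91 and 0.76) and Mcmbp (r = 0.92), and the latter was 0.11 without the 2 hearts.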

How the data were processed

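The authors hybridised RNA from 8 whole hearts to 8 arrays and deposited a table of 45101 probesets. Affymetrix Expression Console, Partek and RMA are the tools in the submitters' processing notes. The deposited intensities, between 0.219 and 124739, are not logged, have a mean of 500 on every array once the top and bottom 2% of probesets are set aside, and differ in distribution between arrays. They are therefore not RMA values, and the step that made them is not given in the sources used here. The design had assumed log2 intensity. Here the deposited intensity was put on the log2 scale as it stood, without a floor or another normalization. Of the probesets 64 were controls, 9160 had no entry in the platform annotation used here, 932 named several genes and 34945 named 1 gene; only the latter were used, and the brightest by mean over the 8 arrays stood for each of 18193 genes. Symbols were updated through the RefSeq gene table of GRCm38.p6 (18032 genes), and promoter windows came from RefSeq for the same build, for 7 of the 9 receptors.

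The genotypes were compared with limma 3.58.1 (lmFit and eBayes) under R 4.3.3, two-sided, with Benjamini-Hochberg adjustment over all genes and a threshold of 0.05. The methods of the study name a random variance model test on the brightest probeset, to which the prior common to all genes is the closest, and the trended prior was an alternative. The fit was run on simulated data with 200 changed genes, in which each gene varied independently of the others. That run does not cover genes that move together among hearts. Single genes and correlations were also tested by exact permutation. Beside the receptors and Ncoa2, the text names the 3 genes with the smallest p from each list, genes that passed in either fit, and the 2 genes most alike to each receptor. Further genes, of known role in a pathway or of extreme value, were picked with their values in view. The 11 pathway lists and 11 marker lists came from general knowledge. Fkbp5, Klf9, Pgr and Ryr2 are each counted in a pair of lists, so those lists are not separate readings. The receptors and the lists were chosen with earlier results of these data known. Alternatives were the prior and own variance, array weights, the replicate number as a block, the mean of all probesets, omission of cross-hybridising probesets or of dim genes, a floor of 50, median centring, quantile normalization and each array left out. The plots were made with matplotlib 3.10.9 (Python 3.11.15).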

Additional observations from a re-analysis of the deposited data

Results flagged for a closer look

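In 156 groups of 4 hearts, the gap of the highest or lowest heart to its neighbour was set against the range of the group. By Dixon's limit, which chance passes in about 1 group in 20, 5 groups had a heart apart from the rest. The gap was 0.842 of the range for Hsd11b1 in SRC-2 KO hearts (KO heart 3, at 1552), 0.857 for Ucp3 in WT hearts (WT heart 4, at 1502), 0.830 for Cxcl12 in WT hearts (WT heart 2, at 1844) and 0.870 for Fos in WT hearts (WT heart 1, at 372.5). For the mean log2 signal of the cardiomyocyte markers in WT hearts it was 0.868 (WT heart 4, at 15.3). None of the 9 receptors was among them.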

How the results depend on the processing

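None of the 9 receptors passed under any alternative, in either direction, with adjusted p from 0.177 to 1. The number of receptors whose hearts did not overlap stayed at 0 with every array kept and ran from 0 to 1 with an array left out (Esr1, without WT heart 1). Directions that turned were those of Nr3c2, to 0.0781 with median centring and 0.0602 with quantile normalization and between -0.181 and 0.0824 with an array left out, of Thra, to 0.0174 with median centring, and of Thrb, to -0.168 with signals under 50 set to 50 and between -0.489 and 0.757 with an array left out.

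Over all genes, 1 passed higher and 3 lower. These counts were 1 and 5 with array weights, 0 and 1 with the mean of all probesets, 0 and 1 with the own variance of each gene, 0 and 3 with quantile normalization, 0 and 2 with a floor of 50, 0 and 3 without dim genes, and 22 and 47 with the trended prior. With an array left out they ran from 0 to 1 and from 1 to 5, and with the trended prior from 2 to 104 and from 3 to 218, the highest without KO heart 4. With the replicate number as a block they were 0 and 0. Deviations of same-numbered hearts correlated at 0.07, -0.08, -0.03 and 0.12. The WT heart most like each KO heart was WT 1 for KO 1, WT 3 for KO 2, WT 1 for KO 3 and WT 4 for KO 4. Values this small cannot decide whether the numbers pair littermates. The block changed no call among the receptors.

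Signals under 50 carry little information on Rara, Thrb and much of the steroid and thyroid handling lists, and the median of retinoid handling was 0.00 with the floor of 50. With a heart left out, that of steroid handling turned from 0.27 to -0.15 (without WT heart 1). Among the receptors, an array left out took Nr3c1 to between -0.40 and -0.15, Esr1 to between -1.47 and -0.52, Thra to between -0.13 and -0.0179, Rara to between -0.80 and -0.0153, Rarb to between -0.24 and -0.0021, Rora to between -0.215 and -0.10 and Nr4a1 to between 0.45 and 1.08. Median centring gave -0.072 for Rora and -0.0416 for Rarb. The cause of these shifts was not tested.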
